A study of Mus musculus with 16 samples.

Results

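Branched-chain amino acid catabolism was followed through 10 genes in the gastrocnemius, a calf muscle, of 16 mice. The genes were chosen by name for their place in the pathway, with earlier results of these data known. They were looked up by symbol among the 21923 genes of the expression table, and were all found and all passed the filter on low counts. Muscle RNA was sequenced from 4 mice in each of 4 groups. The NOR mice were injected with PBS and carried no tumor. The CAC mice carried a subcutaneous tumor, either LLC lung carcinoma or CT26 colon carcinoma, and developed cachexia. The AM mice carried the same tumors and received amiloride, a diuretic, by intraperitoneal injection at 2 mg/kg every day from day 9. The KD mice carried tumors grown from LLC or CT26 cells in which Rab27 had been knocked down, and received no amiloride. By the paper's account the NOR, CAC, and KD mice received PBS by the same route every day from day 9. All muscle was taken on day 30. In every group replicates 1 and 2 were labelled C57BL/6, the strain given LLC cells, and replicates 3 and 4 were labelled BABL/c, the strain given CT26 cells. Rab27 was knocked down in the tumor cells and not in the mice, so its level in muscle is no check of the KD group, and the tumor type cannot be told apart from the labelled strain.

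Leucine, isoleucine, and valine are degraded in mitochondria, and skeletal muscle is a main site of their first step. In that step the mitochondrial aminotransferase BCAT2 moves the amino group to alpha-ketoglutarate. The resulting keto acids are committed to oxidation by the branched-chain keto acid dehydrogenase complex (BCKDH), which the kinase BCKDK switches off by phosphorylating the alpha subunit of its decarboxylase and which the phosphatase PPM1K switches on again. The pathway then divides into separate arms for leucine, isoleucine, and valine.

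Total counts were 35913190 to 61032708 per library, and the members had 352 to 14928 counts each, so the spread between mice exceeds the counting error. Myofibre markers were abundant in all libraries, with a summed level of 40785 to 146086 CPM (counts scaled to library size with TMM). Several libraries stood apart. The summed level of 5 B cell markers was 0.422 to 2.77 CPM in NOR replicate 1, CAC replicates 1 and 4, and KD replicates 2 and 3, and 27.9 to 354 CPM in the other 11 libraries. AM replicate 1 was high in several hepatocyte markers, with albumin at 1208 CPM against at most 15.4 CPM elsewhere. Ttr, Apob, and Serpina1a were at 39.4, 40.8, and 129 CPM against at most 0.434, 0.295, and 6.94 CPM. Cyp2e1 of the same marker list was not raised, with at most 12488 counts in an AM library and up to 28408 in a NOR library. KD replicate 3 had 0 counts of 4 Y-linked genes. Nnt was at 44.0 to 112 CPM and H2-K1 at 67.5 to 116 CPM in CAC replicate 4, AM replicates 1 and 3, and KD replicate 1, against 5.73 to 21.5 CPM and 187 to 870 CPM in the other 12 libraries. C57BL/6J mice are known for a deletion in Nnt, and this division of the libraries did not follow the strain labels, so strains are given here as labelled only.

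In the NOR gastrocnemius the members spanned a wide range of levels per transcript length. The deposited FPKM value was highest for Bckdha (alpha subunit of the BCKDH decarboxylase, 140 ± 10.8, SD, n = 4) and Bckdk (105 ± 5.34), and these 2 genes did not overlap. Hibadh (56.0 ± 4.86), Bcat2 (51.3 ± 9.51), and Ivd (45.5 ± 3.63) followed, each overlapping its neighbour. Mccc2 (21.5 ± 3.0), Mccc1 (15.7 ± 3.69), Dbt (15.6 ± 2.43), and Bckdhb (13.0 ± 1.18) formed a lower set in which neighbours also overlapped. Ppm1k was lowest at 4.07 ± 0.335 FPKM. Within the complex, Bckdha mRNA stood 9.86 to 11.7 times above Bckdhb mRNA in the NOR mice, although the proteins form a tetramer of equal parts. Of the annotated exon bases of Bckdha, 61.7% are also covered by B3gnt8 on the opposite strand, and the sources used here do not say whether counting used strand. B3gnt8 had 37 to 157 counts where Bckdha had 7066 to 14928.

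In the comparison of CAC vs. NOR, which asks how the pathway stood in cachectic muscle, Bckdk was the member that passed the criteria of the study (an FDR no higher than 0.05 with a change of 1.5-fold or more in either direction, tested here with edgeR's quasi-likelihood method). It was downregulated to 0.615 of its NOR level. The transaminase Bcat2, the BCKDH subunits Bckdha, Bckdhb, and Dbt, and Hibadh of the valine arm gave estimates between 1.03-fold and 1.48-fold that did not pass. The 3 leucine arm genes among the members (Ivd, Mccc1, and Mccc2) gave estimates between 0.761-fold and 0.773-fold. Among all 14666 genes tested 9.45% passed in either direction and 5.13% passed downward, so that 1 of 10 members is close to the background. The median log2 fold change was -0.08 over the members and 0.01 over all genes. In CPM the groups did not overlap for 3 members, Bckdk and Ivd being lower and Bckdhb higher in the CAC mice, where 23.3% of all genes did not overlap. For Ivd the groups overlapped in the deposited FPKM. At an unadjusted p below 0.05, 4 members passed, against 29.1% of all genes.

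**Figure D1:**
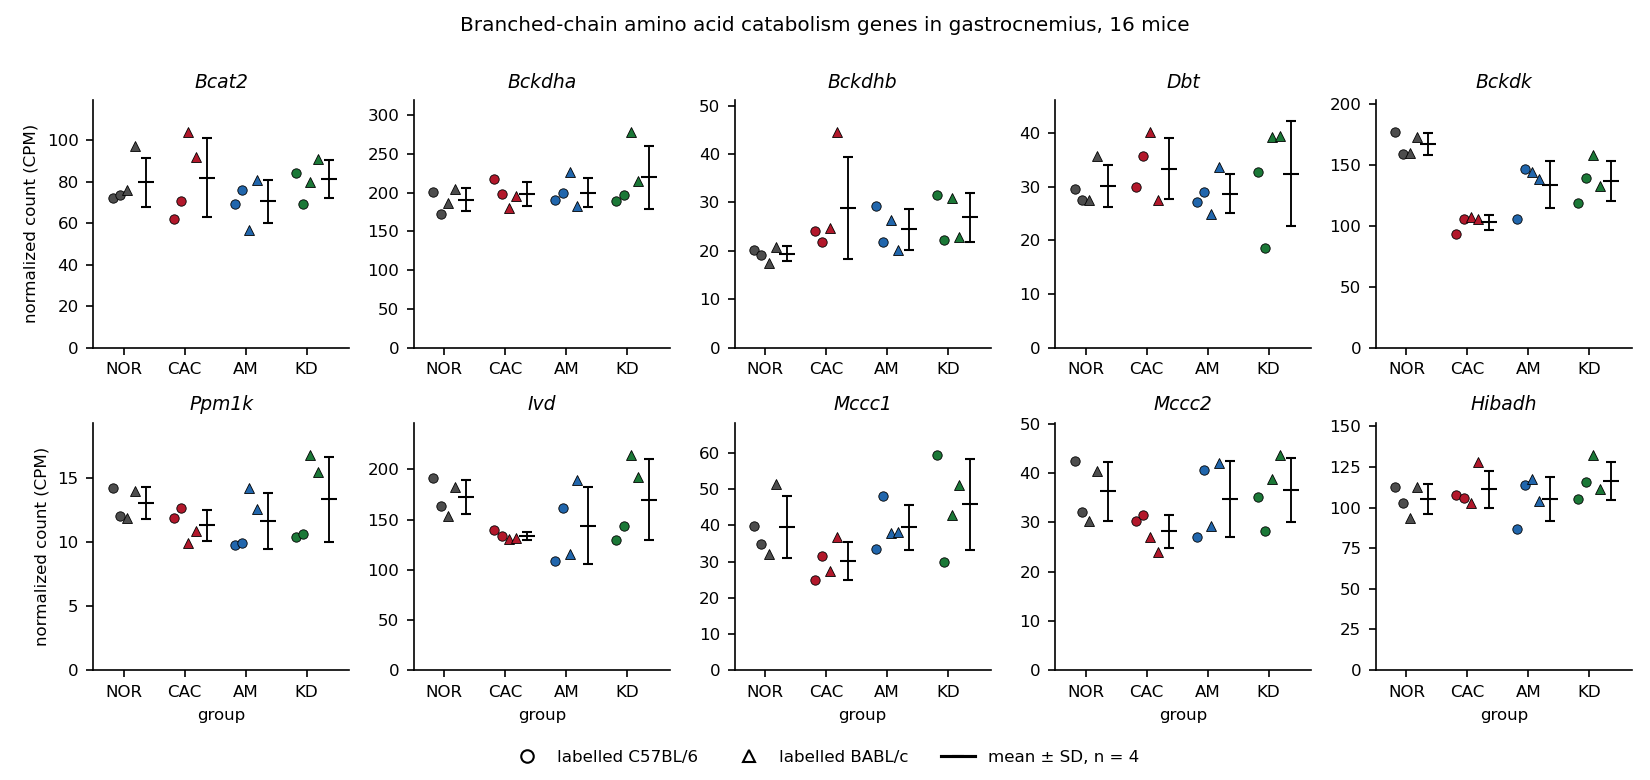
Normalized counts (CPM, linear axis from 0) of the 10 members in every mouse by group, with circles for mice labelled C57BL/6 and triangles for mice labelled BABL/c. The bars give the mean ± SD of 4 mice. Bckdk lies at 93.6 to 107 CPM in the CAC mice and at 159 to 177 CPM in the NOR mice, and Bckdhb has a single high CAC mouse at 44.5 CPM.

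Bckdk (chr7:127904082-127910221, plus strand, GRCm38) had normalized counts of 177, 159, 160, and 173 CPM in the NOR mice and of 93.6, 106, 107, and 106 CPM in the CAC mice. Every CAC mouse lay below every NOR mouse. The log2 fold change was -0.70 ± 0.09 (SE, n = 4 per group, 95% confidence interval -0.92 to -0.49, edgeR FDR = 0.00428). Within each labelled strain the estimate was -0.75 for C57BL/6 and -0.61 for BABL/c, and with 2 mice against 2 the edgeR FDR was 0.0748 and 0.165, so that the call was lost. Without the 5 libraries in which B cell markers were near 0 the estimate was -0.59 and the FDR 0.0543. With scaling to total counts alone the FDR was 0.0199 and the log2 fold change of -0.56 fell short of the limit of 1.5-fold.

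In the AM mice Bckdk stood at 106, 147, 144, and 138 CPM, and in the KD mice at 119, 139, 158, and 132 CPM. In CPM the KD mice all lay above the CAC mice and below the NOR mice, with KD replicate 3 at 157.8 CPM close to NOR replicate 2 at 158.6 CPM. In the deposited FPKM the KD range (77.0 to 90.4) lay below the NOR range (101 to 113) and overlapped the CAC range (57.9 to 86.2). That overlap came through CAC replicate 3, the library with the largest TMM factor (1.24). The AM mice all lay below the NOR mice, and AM replicate 1, the library high in albumin, lay within the CAC range. Relative to the CAC gastrocnemius the log2 fold change was 0.38 ± 0.12 (SE) in the AM gastrocnemius (edgeR FDR = 0.104) and 0.41 ± 0.12 in the KD gastrocnemius (FDR = 0.302), and neither was called. Without AM replicate 1 the AM estimate was 0.47 (FDR = 0.0568). Relative to the NOR gastrocnemius the estimates were -0.31 for AM (95% confidence interval -0.57 to -0.06, FDR = 0.531) and -0.28 for KD (-0.55 to -0.02, FDR = 0.999). These comparisons share the CAC or the NOR mice and are not independent of each other.

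Ppm1k (chr6:57506502-57535468, minus strand), the phosphatase that opposes BCKDK, ranged from 11.8 to 14.2 CPM in the NOR mice, 9.88 to 12.6 CPM in the CAC mice, 9.78 to 14.2 CPM in the AM mice, and 10.4 to 16.8 CPM in the KD mice. All groups overlapped. The CAC vs. NOR estimate was -0.21 on the log2 scale (95% confidence interval -0.50 to 0.07, edgeR FDR = 0.305), and it was 0.04 in AM vs. CAC (-0.31 to 0.39) and 0.23 in KD vs. CAC (-0.21 to 0.67).

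The regulators were also set against each other within each mouse, as a description without a test. The ratio of Bckdk to Bckdha in FPKM was 0.758, 0.794, 0.740, and 0.728 in the NOR mice and 0.371, 0.459, 0.511, and 0.464 in the CAC mice. It was 0.476, 0.634, 0.550, and 0.653 in the AM mice and 0.540, 0.610, 0.490, and 0.532 in the KD mice. No mouse that carried a tumor reached the NOR range. The ratio of Bckdk to Ppm1k was 25.9 ± 1.12 (SD, n = 4) in the NOR mice, 18.6 ± 2.70 in the CAC mice, 23.6 ± 4.22 in the AM mice, and 21.4 ± 4.14 in the KD mice. AM replicate 1 and KD replicate 3 lay within the CAC range of the ratio to Bckdha. For the ratio to Ppm1k the AM range (20.5 to 29.8) and the KD range (17.2 to 26.5) overlapped both the CAC range of 15.9 to 21.9 and the NOR range of 24.9 to 27.2.

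**Figure D2:**
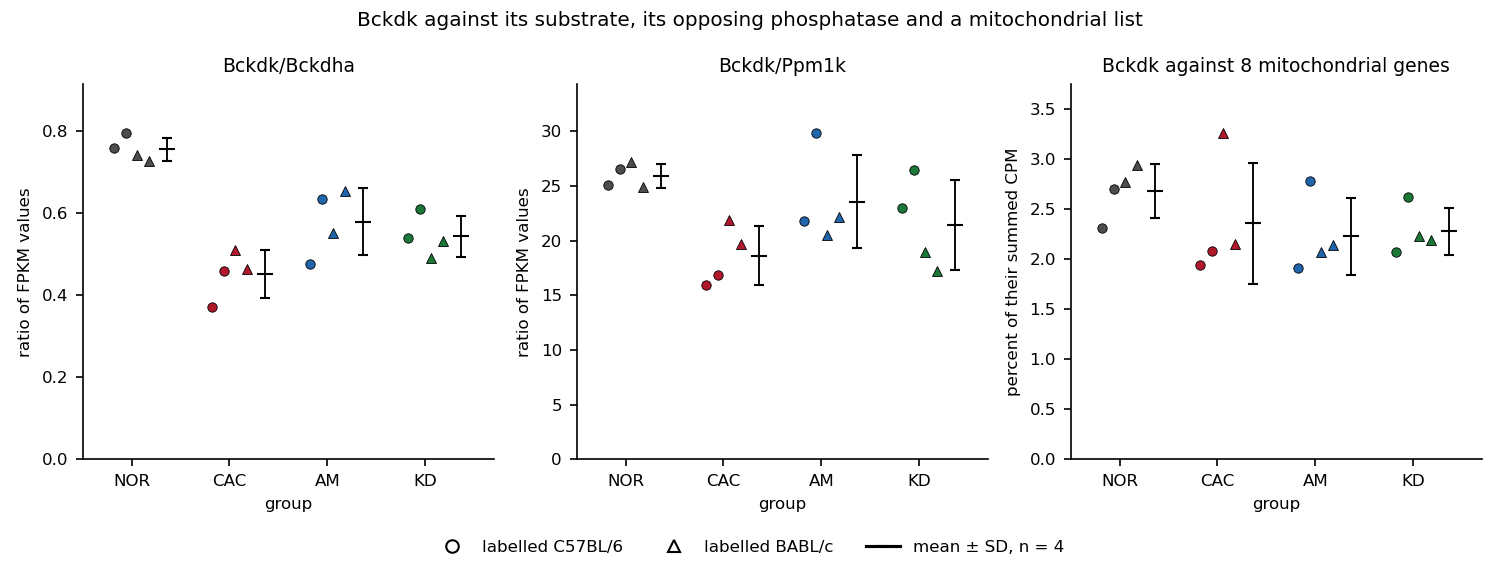
Ratios in every mouse, on linear axes from 0: Bckdk to Bckdha and Bckdk to Ppm1k in FPKM, and Bckdk CPM as a percentage of the summed CPM of 8 mitochondrial genes. Bars give the mean ± SD of 4 mice. The CAC mice lie at 0.371 to 0.511 and the NOR mice at 0.728 to 0.794 for Bckdk to Bckdha, while on the mitochondrial scale CAC replicate 3 lies at 3.26% and the other 3 CAC mice at 1.94% to 2.15%, with the NOR mice at 2.31% to 2.94%.

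Other gene groups moved with the fall of Bckdk. A list of 8 genes of mitochondrial mass, among them Cs (citrate synthase) and Sdha (a subunit of succinate dehydrogenase), had 3 members called down and 0 called up in CAC vs. NOR, and its summed level was 3285 to 5079 CPM in the CAC mice and 5771 to 7643 CPM in the NOR mice. As a percentage of that sum, Bckdk was 2.31, 2.70, 2.77, and 2.94 in the NOR mice and 1.94, 2.08, 3.26, and 2.15 in the CAC mice, so that the groups overlapped on this scale through CAC replicate 3, the mouse with the lowest sum (3285 CPM against 4825 to 5079 CPM in the other CAC mice), while the other 3 CAC mice lay below the NOR range. On the same scale Bckdha lay above the NOR range of 2.63% to 3.49% in every CAC mouse (3.91% to 5.50%). Bckdhb (0.432% to 0.907% in CAC and 0.265% to 0.355% in NOR) and Hibadh (2.09% to 3.13% and 1.48% to 1.92%) did not overlap either, and the other members overlapped. Because the sum was lower in every CAC mouse, a gene with a steady CPM rises on this scale. Bckdha and Hibadh overlapped in CPM. The share of all genes that did not overlap on this scale was not computed. Erythrocyte markers (5 of 5 called up, summed level 3646 to 8714 CPM in CAC and 1002 to 1374 CPM in NOR) and neutrophil markers (3 of 5 called up, 81.4 to 182 CPM and 3.66 to 21.4 CPM) also differed. No erythrocyte marker was at 0 in any library, and the neutrophil marker Ly6g was at 0 in 1 NOR and 1 AM library. Skeletal myofibre markers had 0 of 5 called and a median log2 fold change of -0.59, with a summed level of 40785 to 102672 CPM in CAC and 100943 to 146086 CPM in NOR. The part of these differences in the Bckdk result was not tested, and in such bulk samples fewer cells of a type and less RNA per cell cannot be told apart.

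The upstream sequences of the kinase and the phosphatase are shown because Bckdk was the member called in CAC vs. NOR and PPM1K acts against it on the same subunit. RefSeq windows for GRCm38.p6 matched 9 of the 10 members, and each sequence below covers the 250 bases before the start site, with the letters CACCC (a core bound by Krüppel-like factors) and CCAAT in capitals on either strand, in which case they read GGGTG and ATTGG. Bckdk lies on the plus strand at chr7:127903823-127904072 and Ppm1k on the minus strand at chr6:57535488-57535737.
Bckdk: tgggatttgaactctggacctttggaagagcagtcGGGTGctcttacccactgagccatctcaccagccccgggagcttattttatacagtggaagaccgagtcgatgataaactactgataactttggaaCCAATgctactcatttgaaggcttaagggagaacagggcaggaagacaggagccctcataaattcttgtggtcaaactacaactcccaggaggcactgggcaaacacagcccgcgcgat
Ppm1k: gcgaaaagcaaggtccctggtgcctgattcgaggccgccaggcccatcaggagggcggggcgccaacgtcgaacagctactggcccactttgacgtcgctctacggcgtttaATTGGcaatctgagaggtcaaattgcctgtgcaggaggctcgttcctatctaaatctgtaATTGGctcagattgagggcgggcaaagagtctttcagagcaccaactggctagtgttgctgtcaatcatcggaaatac
Bckdk held 1 CACCC and 1 CCAAT, and Ppm1k held 0 and 2. Such windows are common, since 52.0% of the 32851 windows of all genes held CACCC and 33.8% held CCAAT, and 7 of the 11 windows of the members held each of them. The longer word TCAAGGTCA, a site of estrogen-related receptors, was in 0.387% of all windows and in 0 of the 11. These are matches of letters, and no binding was measured.

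Bckdhb (chr9:83925145-84124240, plus strand), the beta subunit of the decarboxylase, had normalized counts of 20.2, 19.1, 17.4, and 20.8 CPM in the NOR mice and of 24.1, 21.9, 24.7, and 44.5 CPM in the CAC mice. All CAC mice lay above all NOR mice, and CAC replicate 4 was far above the others. The log2 fold change was 0.57 ± 0.22 (SE, 95% confidence interval 0.06 to 1.08, edgeR FDR = 0.129), and without CAC replicate 4 it was 0.28 (FDR = 0.141). In the AM mice the values were 29.3, 21.8, 26.3, and 20.2 CPM, and in the KD mice 31.6, 22.2, 31.0, and 22.9 CPM. The 4 libraries set apart by Nnt and H2-K1 (CAC replicate 4, AM replicates 1 and 3, KD replicate 1) had 26.3 to 44.5 CPM of Bckdhb, and of the other libraries KD replicate 3 alone lay in that range. Against CAC the log2 fold change was -0.23 in AM (95% confidence interval -0.77 to 0.31) and -0.10 in KD (-0.67 to 0.46), and these signs turned when CAC replicate 4 was left out (0.05 and 0.19).

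Bckdha (chr7:25629946-25658981, minus strand) was at 172 to 205 CPM in the NOR mice, 181 to 218 CPM in the CAC mice, 183 to 226 CPM in the AM mice, and 189 to 278 CPM in the KD mice. The CAC vs. NOR estimate was 0.05 on the log2 scale (95% confidence interval -0.18 to 0.27, edgeR FDR = 0.803), which leaves room for a fold change between 0.884 and 1.21. Dbt (chr3:116513070-116549981, plus strand), which encodes the transacylase core of BCKDH, was at 27.4 to 35.8 CPM in the NOR mice, 27.6 to 40.1 CPM in the CAC mice, 25.0 to 33.6 CPM in the AM mice, and 18.5 to 39.4 CPM in the KD mice. The CAC vs. NOR estimate was 0.15 on the log2 scale (-0.20 to 0.49, FDR = 0.577). Neither gene passed the test against CAC in AM (log2 fold changes of 0.01 for Bckdha and -0.22 for Dbt) or in KD (0.14 and -0.05). The subunits of the complex thus gave overlapping groups in every comparison with CAC, with the exception of Bckdhb in CAC vs. NOR.

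Bcat2 (chr7:45570153-45589711, plus strand), the aminotransferase of the first step, had 72.1, 73.5, 75.9, and 97.2 CPM in the NOR mice and 61.8, 70.7, 104, and 91.9 CPM in the CAC mice. The groups overlapped, and in the CAC mice the pair labelled BABL/c lay above the pair labelled C57BL/6. The log2 fold change was 0.05 (95% confidence interval -0.37 to 0.46, edgeR FDR = 0.904). The AM mice had 56.8 to 80.8 CPM and the KD mice 69.3 to 91.1 CPM, with log2 fold changes against CAC of -0.22 (-0.65 to 0.22) and -0.02 (-0.44 to 0.40). For CAC vs. NOR the interval spans 0.773-fold to 1.38-fold.

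The 3 leucine arm genes among the members gave lower estimates in the CAC gastrocnemius. The 4 leucine arm genes of the further list described below ran from -1.21 to 0.22 on the log2 scale, with a median of -0.064. Ivd (chr2:118861954-118882909, plus strand), isovaleryl-CoA dehydrogenase, had 191, 164, 153, and 182 CPM in the NOR mice and 139, 134, 131, and 131 CPM in the CAC mice. The groups did not overlap, and the CAC mice lay close together, with a coefficient of variation of 2.91% against 9.95% in the NOR mice. The log2 fold change was -0.37 ± 0.10 (SE, edgeR FDR = 0.0444). This passed the FDR limit, as 14% of all genes did at any fold, and not the fold limit. With each mouse left out in turn the FDR rose to between 0.0560 and 0.0936. As a percentage of the summed CPM of the 8 mitochondrial genes, Ivd was 2.498, 2.79, 2.65, and 3.10 in NOR and 2.89, 2.63, 3.98, and 2.68 in CAC. Only CAC replicate 3, with the lowest mitochondrial sum, lay above the NOR range, and the other 3 CAC mice lay within it.

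Mccc1 (chr3:35959312-36000678, minus strand) and Mccc2 (chr13:99948530-100015639, minus strand) encode the subunits of methylcrotonyl-CoA carboxylase, which acts after IVD. Mccc1 had 40.0, 34.8, 32.1, and 51.5 CPM in NOR and 25.0, 31.6, 27.4, and 36.8 CPM in CAC (log2 fold change -0.39 ± 0.18, SE, edgeR FDR = 0.178). Mccc2 had 42.4, 32.0, 30.3, and 40.5 CPM in NOR and 30.3, 31.5, 26.9, and 24.0 CPM in CAC (-0.37 ± 0.15, FDR = 0.136). The groups overlapped for both genes. As a percentage of the summed mitochondrial CPM the groups also overlapped, at 0.523 to 0.878 in NOR and 0.518 to 0.835 in CAC for Mccc1 and at 0.525 to 0.690 and 0.489 to 0.819 for Mccc2, and CAC replicate 3 was the highest CAC mouse for both. The ratio of Mccc2 to Mccc1 in FPKM was 1.40 ± 0.170 (SD, n = 4) in the NOR mice and 1.45 ± 0.348 in the CAC mice, with 1.33 ± 0.224 for AM and 1.24 ± 0.238 for KD, and overlapped among the groups. Hibadh (chr6:52546228-52640389, minus strand), 3-hydroxyisobutyrate dehydrogenase of the valine arm, was at 93.9 to 113 CPM in NOR and 103 to 128 CPM in CAC (0.07, 95% confidence interval -0.17 to 0.32, FDR = 0.727).

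**Figure D3:**
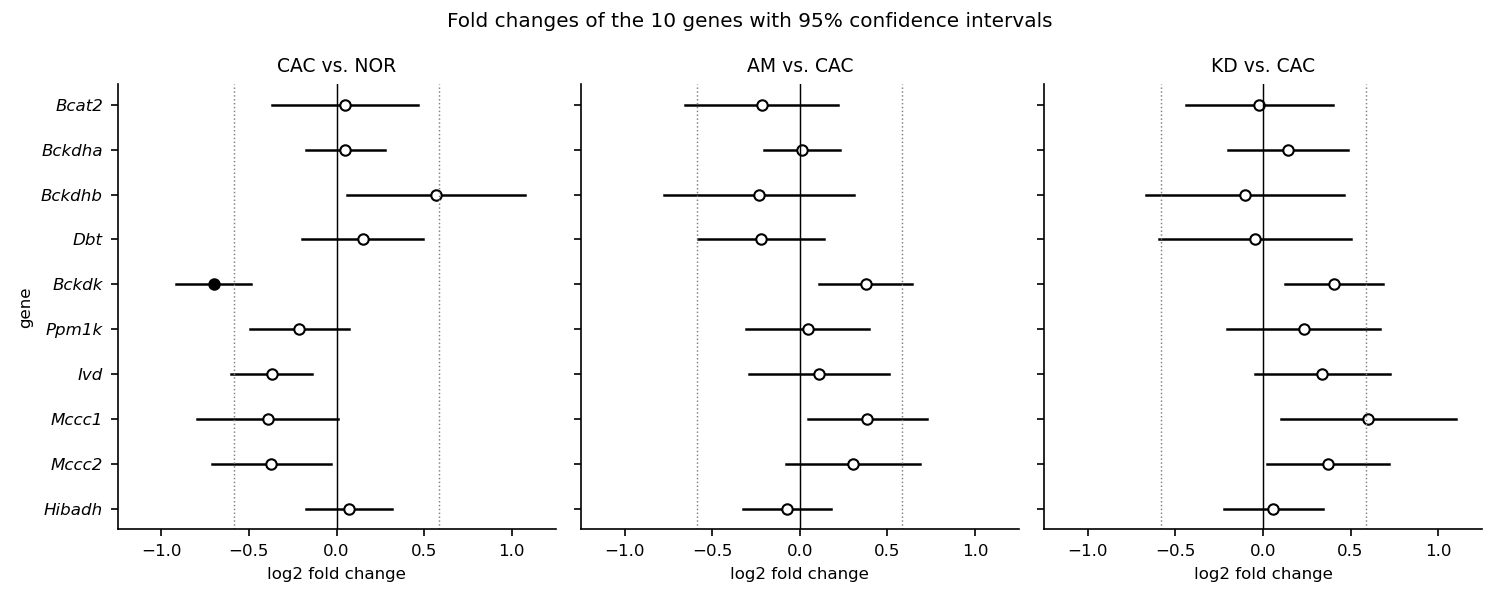
Log2 fold changes of the 10 members (points) with 95% confidence intervals (lines) against the group named second in each panel title, from edgeR fits of 4 mice per group. Filled points passed the FDR and fold limits, and the dotted lines mark 1.5-fold. Bckdk in CAC vs. NOR, at -0.70, is the filled point, and Ivd, Mccc1, and Mccc2 lie between -0.39 and -0.37 in that comparison.

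In AM vs. CAC, which asks whether amiloride altered the pathway in cachectic muscle, 0 of the 10 members passed in edgeR, and 3.66% of all 14674 genes passed. DESeq2 and limma-voom also called 0 members. At an unadjusted p below 0.05, 2 members passed, Bckdk and Mccc1, against 21.7% of all genes, and no member had groups that did not overlap, against 15.3% of all genes. Mccc1 was at 33.5, 48.0, 38.0, and 38.3 CPM in the AM mice, and its log2 fold change was 0.39 (95% confidence interval 0.05 to 0.72, edgeR FDR = 0.173). Mccc2, at 27.1, 40.6, 29.2, and 42.1 CPM, gave 0.30 (-0.08 to 0.69). Ivd was spread widely in the AM mice, at 109, 162, 116, and 190 CPM, and gave 0.11 (-0.29 to 0.51). Replicates 1 and 3, the AM libraries set apart by Nnt and H2-K1, lay below and replicates 2 and 4 above the whole CAC range. Without the 4 libraries set apart in this way the Ivd estimate was 0.37 (edgeR FDR = 0.250). Hibadh was at 87.1 to 117 CPM (-0.08, -0.33 to 0.18). By DESeq2 the FDR of Bckdk was 0.0267, at a fold change under 1.5.

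In KD vs. CAC, which asks the same of tumors with Rab27 knocked down, 0 members passed in edgeR, DESeq2, and limma-voom, and in edgeR 0.00685% of all 14593 genes did. At an unadjusted p below 0.05, 3 members passed, all higher in KD (Bckdk, Mccc1, and Mccc2), against 11.1% of all genes. For 1 member, Bckdk, the KD mice did not overlap with the CAC mice in CPM, as for 7.29% of all genes, while in FPKM they overlapped. Mccc1 was at 59.5, 30.0, 43.0, and 51.1 CPM in the KD mice, and its log2 fold change was 0.60 (95% confidence interval 0.10 to 1.10, edgeR FDR = 0.373). Mccc2, at 35.2, 28.3, 38.9, and 43.7 CPM, gave 0.37 (0.02 to 0.72, FDR = 0.424). Ivd, at 129, 144, 214, and 192 CPM, gave 0.34 (-0.05 to 0.72). Both estimates were near 0 in mice labelled C57BL/6 alone (0.07 for Mccc2 and 0.03 for Ivd) and larger in mice labelled BABL/c alone (0.67 and 0.61), and the interaction of strain and group did not pass (0.62 and 0.59, edgeR FDR = 0.866 for each). KD replicate 2 was the lowest KD mouse for Mccc1 and Mccc2, within the CAC range in each. Hibadh was at 105 to 132 CPM (0.06, -0.22 to 0.34).

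When AM and KD were each compared with NOR and with each other, 0 members and 0 of all genes passed in edgeR. DESeq2 and limma-voom also called 0 members there. At an unadjusted p below 0.05, 2 members passed in AM vs. NOR and 2 in KD vs. NOR, in each case Bckdk and Bckdhb, against 9.19% and 3.54% of all genes. In CPM, Bckdk lay below NOR without overlap in both, and Bckdhb above it in KD, where 5.11% of all genes in AM vs. NOR and 2.26% in KD vs. NOR did not overlap. In FPKM, Bckdhb of KD replicate 2 (13.0) lay within the NOR range (11.8 to 14.5). Bckdhb was higher than in NOR, by a log2 fold change of 0.34 (95% confidence interval 0.02 to 0.67) in AM and of 0.47 (0.13 to 0.82) in KD. AM vs. KD had 0 members at that level, where 1.11% of all genes had it. There, all 10 estimates lay below 0, from -0.23 to -0.03, with a median of -0.15 where the median of all genes was -0.0047. The 10 genes were measured in the same 8 libraries, so their signs are not independent. Of the 36 further genes described below, 27 also had estimates below 0.

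The pathway was also followed through 36 further genes of transport, regulation, and the later steps, a list written with earlier results of these data known. In CAC vs. NOR, 3 of them were called up and 1 down (background 9.45%), and their median log2 fold change was -0.05. Slc3a2, a heavy chain shared by several amino acid transporters, among them some for large neutral amino acids, had 46.4, 55.4, 59.2, and 67.8 CPM in the NOR mice and 122, 119, 129, and 179 CPM in the CAC mice. Every CAC mouse lay above every NOR mouse (log2 fold change 1.26 ± 0.16, SE, edgeR FDR = 0.00377). The call was lost in mice labelled BABL/c alone (FDR = 0.122). In the AM mice it was at 85.5, 93.7, 84.4, and 61.1 CPM, below all CAC mice, and was called down (-0.75 ± 0.17, FDR = 0.0445). That call was lost in 18 of 21 alternatives, among them each of the 8 mice left out (FDR 0.0715 to 0.104), RLE scaling (0.0537), total counts (0.0642), no low-count filter (0.0565), and the replicate block (0.232). With a mouse left out the log2 fold change was -0.82 to -0.61. It was -0.41 in mice labelled C57BL/6 alone and -1.10 in mice labelled BABL/c alone. With the block and in either strain alone, 0 of all genes passed. The call in CAC vs. NOR was kept with any mouse left out. In the KD mice it was at 61.8 to 145 CPM and was not called (-0.56, FDR = 0.517).

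Klf15, a transcription factor known to promote amino acid catabolism in muscle, had 58.4, 33.4, 56.5, and 86.7 CPM in NOR and 139, 111, 98.0, and 105 CPM in CAC. It was called up in CAC vs. NOR (log2 fold change 0.95 ± 0.26, SE, edgeR FDR = 0.0438). In the AM mice, at 54.6, 47.6, 44.0, and 77.1 CPM, it was called down relative to CAC (-1.02 ± 0.19, FDR = 0.0254). The rise in CAC was kept when NOR replicate 4 was left out and lost without any other mouse (FDR 0.0224 to 0.112). It was also lost with the replicate block (0.0551), with labelled strain in the model (0.0506), with all 16 libraries in 1 fit (0.0511), in either labelled strain alone (0.0981 and 0.358), and without the 5 libraries low in B cell markers (0.224). The call of the fall in AM was lost in 12 of 21, among them the replicate block (0.132), labelled strain in the model (0.0507), all 16 libraries in 1 fit (0.0761), and the fits without CAC replicate 1 or 2 or AM replicate 1, 2, or 3 (up to 0.0733). Over the 21 alternatives its log2 fold change was -1.28 to -0.77, and with the block 0 of all genes passed. In the KD mice it was at 37.5 to 89.5 CPM, all below the CAC mice, and was not called (-0.83, FDR = 0.309).

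Oxct1, which activates ketone bodies, among them those formed from leucine, had 416, 334, 316, and 307 CPM in NOR and 157, 163, 90.9, and 188 CPM in CAC, and was called down (log2 fold change -1.21 ± 0.22, SE, edgeR FDR = 0.0117). The Oxct1 call was lost in mice labelled C57BL/6 (FDR = 0.0510) or BABL/c (0.252) alone and without the 5 libraries low in B cell markers (0.0543). Over the 21 alternatives the log2 fold change was -1.34 to -1.02, and in mice labelled BABL/c alone 0 of all genes passed. Oxct1 was at 198 to 363 CPM in AM (0.81, FDR = 0.105) and 230 to 401 CPM in KD (1.04, FDR = 0.267), above all CAC mice in both. It was not called by edgeR in either and was called by DESeq2 in both. Hsd17b10, a dehydrogenase of the isoleucine arm, had 60.2, 54.9, 51.9, and 56.7 CPM in NOR and 66.4, 70.5, 103, and 105 CPM in CAC, and was called up (0.63 ± 0.18, FDR = 0.0488). This call was kept without CAC replicate 1 or 2 and lost without any other mouse (FDR 0.0384 to 0.127), and it was also lost with the replicate block (0.105) and by limma-voom (0.0580). The estimate was 0.25 in mice labelled C57BL/6 and 0.97 in mice labelled BABL/c. In the isoleucine arm the estimates thus ran in opposite directions, from -0.68 to 0.63.

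Glul, glutamine synthetase, which takes up amino nitrogen, was called down in AM vs. CAC. It had 1604, 1296, 1139, and 1320 CPM in the CAC mice and 415, 381, 453, and 438 CPM in the AM mice (log2 fold change -1.66 ± 0.13, SE, edgeR FDR = 0.00223). The call was kept with any mouse left out (FDR 0.00879 to 0.0137) and lost with the replicate block (0.0737), with all 16 libraries in 1 fit (0.0628), in mice labelled C57BL/6 (0.146) or BABL/c (0.175) alone, and without the 4 libraries set apart by Nnt and H2-K1 (0.100). The log2 fold change was -1.85 to -1.49 in these fits, and with the block, in either strain alone, and without the 4 libraries 0 of all genes passed. The NOR mice had 255, 274, 337, and 1029 CPM, so that 1 of them lay near the CAC range. CAC vs. NOR was not called by edgeR (1.51, FDR = 0.0560), but Glul was called there by DESeq2, by limma-voom, with labelled strain or the replicate block in the model, with all 16 libraries in 1 fit, in mice labelled C57BL/6 alone, and without NOR replicate 4. The KD mice were split, with 360 and 611 CPM in replicates 1 and 4 and 1251 and 1237 CPM in replicates 2 and 3. Replicates 2 and 3 are the KD libraries low in B cell markers, and they also had a lower summed level of 5 macrophage markers (49.4 and 29.7 CPM against 276 and 253 CPM in replicates 1 and 4) and a higher one of 5 slow fibre markers (5735 and 4399 CPM against 1350 and 2035 CPM). The part of these differences in the Glul split was not tested. In AM vs. CAC as a whole, 3 of the 36 genes were called, all down (background 3.66%), and in KD vs. CAC 0 were called by edgeR, 7 had an unadjusted p below 0.05 (11.1% of all genes did), and 2 (Oxct1 and Acaa2) were called by DESeq2, which called 329 of all 14593 genes.

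The genes with the highest mean count in the remaining steps were not called in the comparisons with CAC or in CAC vs. NOR. Dld, the dihydrolipoamide dehydrogenase that BCKDH shares with other complexes, gave -0.31 in CAC vs. NOR (95% confidence interval -0.66 to 0.04) on the log2 scale. Hadha, a fatty acid oxidation enzyme listed in the isoleucine arm, gave -0.23 (-0.59 to 0.13). Aldh6a1 of the valine arm gave 0.35 (0.06 to 0.63, edgeR FDR = 0.102). Every CAC mouse lay above every NOR mouse in CPM, and in FPKM the groups overlapped (97.4 to 133.5 in CAC and 71.6 to 101.4 in NOR). Pccb, a subunit of propionyl-CoA carboxylase, gave -0.37 (-0.66 to -0.09, FDR = 0.0809), and the groups overlapped.

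**Figure D4:**
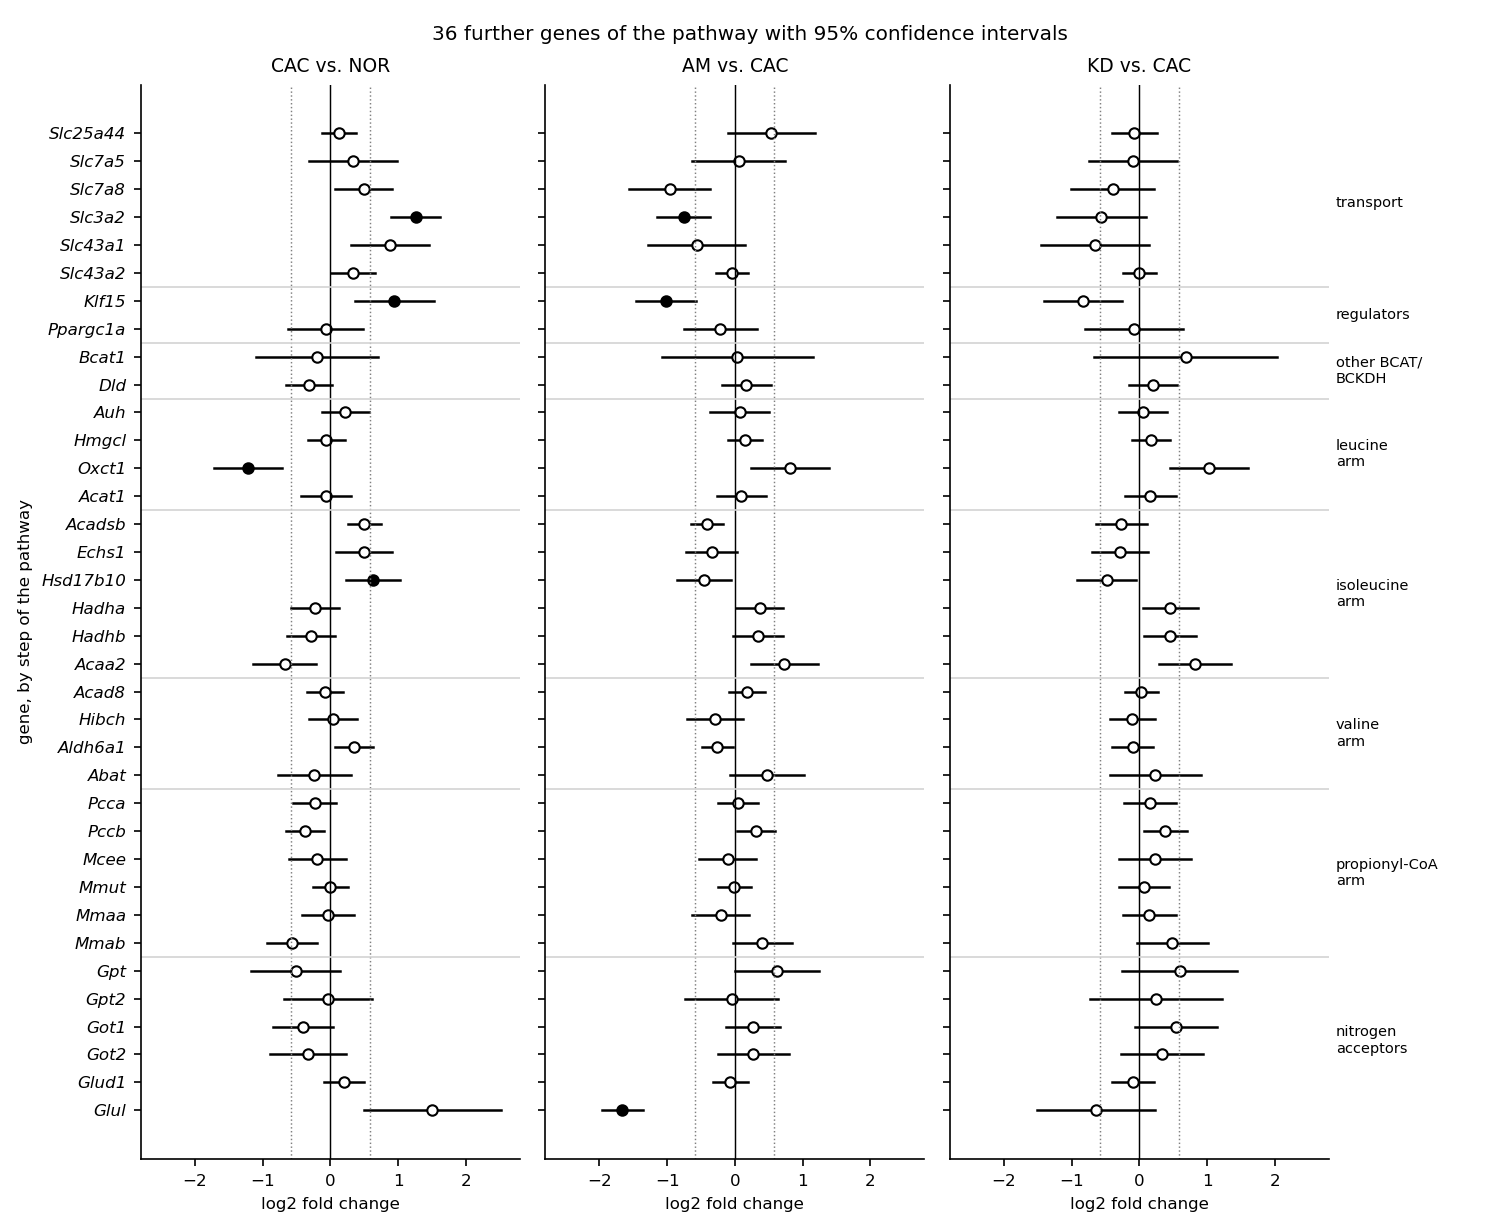
Log2 fold changes (points) with 95% confidence intervals (lines) of 36 further genes of the pathway, by step, in the same 3 comparisons (4 mice per group). Filled points passed the FDR and fold limits, and dotted lines mark 1.5-fold. Slc3a2, Klf15, Hsd17b10, and Oxct1 are filled in CAC vs. NOR, and Slc3a2, Klf15, and Glul in AM vs. CAC.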

How the data were processed

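Gastrocnemius RNA of 16 mice was sequenced by the authors, who aligned and counted the reads. The processing notes name fastp, Bowtie2, HISAT2, and StringTie 1.3.1 and the builds mm9 and GRCm38 without their roles, and strand use is not given in the sources used here. The deposited table holds whole-number counts per gene and FPKM values, which the authors computed per gene length. It holds no comparison columns, and 0 columns of other samples were found.

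The members and gene lists were chosen with earlier results of these data known. All 10 members are named, and of the 36 further genes those called in CAC vs. NOR, AM vs. CAC, or KD vs. CAC, with the member of highest mean count of a step in which fewer than 2 were called. The rest were given as counts and in the plot.

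Counts were fitted in R 4.3.3 with edgeR 4.0.16 (TMM, filterByExpr at its limits of 10 counts and 15 in total, quasi-likelihood F test, no covariate) on the 8 libraries of the 2 groups compared, and p-values were adjusted over all genes tested (Benjamini-Hochberg FDR). The study used NOISeq, which was not used here. CPM values were scaled by TMM over all 16 libraries, and levels of different genes were otherwise compared in FPKM. Intervals are 95% confidence intervals. P-values set the difference between groups against the spread between these mice. Without a covariate that spread also holds the difference between the labelled strains. Pairs of libraries in a group differed by more than sampling noise (chi-square per degree of freedom of at least 67.0 in 24 pairs). On simulated counts the fit was tested before use. Alternatives were scaling by RLE or totals, DESeq2 1.42.0, voom in limma 3.58.1, other filters, strain label or replicate number in the model, 1 fit of all libraries, each strain alone, other fold limits, and each mouse left out. Fits without the 5 libraries low in B cell markers or without the 4 set apart by Nnt and H2-K1 were chosen after seeing the data. Positions come from GENCODE M21 (GRCm38), which matched 21905 of 21923 identifiers.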

Additional observations from a re-analysis of the deposited data

Results flagged for a closer look

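Among the 40 sets of 4 mice formed by 10 members and 4 groups, 3 held a mouse far from the other 3, where chance gives about 1 set in 20. Bcat2 was at 97.2 CPM in NOR replicate 4, above 72.1 to 75.9 CPM in the other NOR mice. Bckdhb was at 44.5 CPM in CAC replicate 4, above 21.9 to 24.7 CPM in the other CAC mice, and this library is also 1 of the 4 set apart by Nnt and H2-K1. Bckdk was at 93.6 CPM in CAC replicate 1, below 106 to 107 CPM in the other CAC mice, and without this mouse the CAC vs. NOR estimate was -0.65 on the log2 scale (edgeR FDR = 0.0163).

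For 3 estimates both treated mice of 1 labelled strain lay above both CAC mice of that strain while both treated mice of the other strain lay below theirs, and the interaction of strain and group was tested in edgeR. The effect in mice labelled BABL/c exceeded that in mice labelled C57BL/6 by 0.65 (log2) for Ppm1k in AM vs. CAC (edgeR FDR = 0.358), by 0.45 for Bckdha in KD vs. CAC (FDR = 0.866), and by 0.82 for Ppm1k in KD vs. CAC (FDR = 0.854). None of these passed. Other estimates also had opposite signs by strain without that separation, among them Bckdhb (interaction -0.76, edgeR FDR = 0.498) and Bcat2 (-0.68, FDR = 0.411) in AM vs. CAC, and 0 of all genes passed the interaction test in the 3 comparisons.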

How the results depend on the processing

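Bckdk stayed down in CAC vs. NOR under all 21 alternatives (log2 -0.75 to -0.56, FDR 2.65e-12 to 0.165), and its call was lost in 4 of them. In this comparison the fit without the 4 libraries is the fit without CAC replicate 4, so that 2 of the 21 are the same. The count of members called in CAC vs. NOR (1) was 2 with no fold limit and 0 with a fold limit of 2, with total counts alone, in either labelled strain alone, and without the 5 libraries low in B cell markers; it stayed at 1 with any mouse left out. The count of the 36 further genes in CAC vs. NOR (4) was 2 with a fold limit of 2, 7 by DESeq2, 0 in mice labelled BABL/c, 1 without the 5 libraries, and 2 to 5 with a mouse left out. In AM vs. CAC (3) it was 6 by DESeq2, 1 with strain as a term, 0 with the replicate block, 0 with all libraries in 1 fit, 0 in either strain, 1 without the 5 libraries, 0 without the 4, and 1 to 2 with a mouse left out. With the block, in either strain, and without the 4 libraries 0 of all genes were called in AM vs. CAC, and 18 without the 5. In KD vs. CAC (0) it was 2 by DESeq2. The causes were not tested.

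Signs turned only for estimates that were not called. In CAC vs. NOR, Bcat2 was -0.13 and Hibadh -0.0079 in mice labelled C57BL/6, Bckdha -0.023 in mice labelled BABL/c, and Bcat2 -0.0064 without the 4 libraries. In AM vs. CAC, total counts gave Bckdha -0.039 and Ppm1k -0.011, C57BL/6 alone gave Bcat2 0.15, Bckdha -0.076, Bckdhb 0.17, and Ppm1k -0.30, the fit without the 5 libraries gave Bckdhb 0.050, and that without the 4 gave Bckdha -0.075, Ppm1k -0.038, and Hibadh 0.025. In KD vs. CAC, total counts gave Hibadh -0.066, limma-voom, strain, and the replicate block gave Bcat2 0.0095, 0.0061, and 0.0034, C57BL/6 alone gave Bcat2 0.24, Bckdha -0.080, Bckdhb 0.25, and Ppm1k -0.19, BABL/c alone gave Dbt 0.19, the fit without the 5 libraries gave Bckdhb 0.20, and that without the 4 gave Bcat2 0.016 and Bckdhb 0.10. With a mouse left out the ranges that crossed 0 were, in CAC vs. NOR, -0.090 to 0.17 for Bcat2 and -0.0048 to 0.097 for Bckdha, in AM vs. CAC, -0.042 to 0.051 for Bckdha, -0.34 to 0.046 for Bckdhb, -0.057 to 0.12 for Ppm1k, -0.059 to 0.21 for Ivd, and -0.12 to 0.00086 for Hibadh, and in KD vs. CAC, -0.14 to 0.14 for Bcat2, -0.22 to 0.19 for Bckdhb, -0.14 to 0.14 for Dbt, and -0.00074 to 0.13 for Hibadh. Of the 210 estimates per comparison under an alternative, 199, 192, and 191 kept their direction and side of the threshold. Deviations of same-numbered mice correlated at 0.63, 0.19, 0.39, and -0.22 in CAC vs. NOR (numbers 1 to 4), at -0.51 to 0.03 in AM vs. CAC, and at -0.67 to -0.29 in KD vs. CAC. In no comparison were all 4 above 0.1, so the numbers were not taken to pair the mice, and the replicate block changed no member's call. In CAC vs. NOR it kept the count of further genes at 4, with Glul and Mmab in place of Hsd17b10 and Klf15. With 352 or more counts per member, precision was set by the spread among 4 mice per group and not by depth.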
